A study of Mus musculus with 80 samples.

Results

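The reporters described here are barcoded transgenes that landed far from every other mapped transgene in the mouse genome. They were chosen by position alone: no other reporter of any of the 4 cell pools lies on the same chromosome within 500 kb on either side. Of the 10692 autosomal reporters in the deposited table, 294 met this rule. All but 1 of them, 293, had at least 10 DNA reads in every DNA library of their pool and were analysed, which is 2.77% of the 10576 autosomal reporters past that minimum. They number 61 in pool A, 66 in pool B, 79 in pool C and 87 in pool D, and are set against the 10283 other autosomal reporters, 2136, 2150, 2995 and 3002 per pool in the same order. The excluded isolated reporter, at chr11:93818373 in pool D, had 8 DNA reads in 1 library and was named after its values were seen.

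The cells are EBRTcH3, mouse embryonic stem cells in which the ROSA26 locus encodes the tetracycline transactivator, tTA. The groups are cells of each pool grown for 72 h with no doxycycline (dox 0) or with 0.01, 0.1 or 100 ng/ml doxycycline (dox). Each pool at each dose has 2 cultures, and each culture has an RNA (cDNA) and a DNA barcode library, which makes 64 barcode libraries. The study asked how the place of integration affects a tet-Off reporter as its activator is withdrawn. All groups share the line, the reporter and its delivery with the piggyBac transposase, and per the labels the transfected cells had been sorted for low eGFP before the pools were made, so reporters in cells outside that gate are not represented. Titles in the labels name a tet-Off reporter, some protocols an mPGK promoter, and the reading in the titles was used. Both cultures of a pool come from the same cells, so p-values from them measure a spread that is technical. Markers of the cells were not analysed, since only barcodes were counted.

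tTA switches a tet-Off reporter on by binding operators in its promoter, and dox takes tTA off the DNA. A transgene takes on much of the activity of its surroundings, a behaviour known as position effect, and piggyBac is known to enter open and transcribed chromatin more often than closed chromatin. Long stretches with few insertions are therefore places where the activity of a transgene is seldom sampled. The level of a reporter is its log2 RNA/DNA, the share of RNA reads over the share of DNA reads in the same culture with a pseudocount of 1, averaged over the 2 cultures and centred on the mean of its pool at that dose. A level of 0 is thus the mean of the pool's autosomal reporters, and a fall that all reporters share is not measured.

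Each reporter is identified by the random barcode that was read in its RNA and DNA libraries. The barcodes of 5 isolated reporters are shown because the results below turn on them: the most distant reporter of pool D, one that was silent throughout, a pair that had more RNA relative to DNA at dox 100 than at dox 0, and one that lost its RNA. They are written 5′ to 3′ as deposited, and no letters are in capitals because a barcode carries no motif.
chr8:5757372, pool D, most distant: cccacattcgtccctc
chr12:98470034, pool D, no RNA at any dose: ctagatgttaagtgtt
chr3:63182789, pool A, higher at dox 0.1 and 100: gtaatgccctaattac
chr5:109050709, pool D, higher at dox 100: gctttcatgaaatacc
chr19:18650744, pool A, no RNA at dox 100: gattaaaggacttgtt
Coordinates are in mm9. Of the 293 isolated reporters, 22 (7.51%) carry a barcode that also occurs in another pool, against 7.38% of all rows, and none shares a barcode within its pool.

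The distances given here describe the choice by position, which sets the isolated reporters apart. Their nearest neighbour lies 500.6 to 2064 kb away, with a median of 636.4 kb, against a median of 44.35 kb for the other autosomal reporters. The median span between the reporters that flank an isolated one on both sides is 1730 kb (285 reporters), and the widest is 5345 kb. The remaining 8 are the first or last reporter of their chromosome. The wider surroundings are also sparse: an isolated reporter has a median of 32 reporters within 5 Mb, with a range of 6 to 73, and the others have a median of 49. The 500 kb on either side that the rule leaves empty are part of that window. Isolated reporters are found on all 19 autosomes, from 5 on chromosome 13 (0.924% of its reporters) to 29 on chromosome 3 (4.62%). Both orientations are about equally common, with 149 on the plus strand and 144 on the minus strand, and their mean levels at dox 0 are −1.98 and −2.0 for the plus and minus strands.

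Isolated reporters were expressed at a low level when the activator was fully present. At dox 0 their mean level was −1.83 in pool A, −2.12 in pool B, −1.83 in pool C and −2.14 in pool D, whereas the other autosomal reporters averaged 0.05 to 0.07. On the log2 scale the difference was −2.04 ± 0.181 (SD, n = 4 pools), negative in 4 of 4 pools. Nearly all isolated reporters were nevertheless transcribed: 285 of 293 had RNA in both cultures, 6 in a single culture and 2 in neither. Their median RNA count per library was 48 and 51 in the 2 cultures, against 247 and 262 for the others, while their median DNA counts were 300 to 322, against 324 to 326. With 4 pools the exact two-sided sign-flip test cannot go below p = 0.13, and it gave that value here.

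The deficit was present at every dose. With rising dox, the difference of isolated minus other reporters was −2.44 ± 0.245 at 0.01 ng/ml, −2.96 ± 0.218 at 0.1 ng/ml and −2.01 ± 0.192 at 100 ng/ml (SD, n = 4 pools), and each was negative in 4 of 4 pools (exact sign-flip test, p = 0.13, the smallest it allows). The 4 pools lay between −3.22 (pool B) and −2.70 (pool C) at 0.1 ng/ml, and at 100 ng/ml between −2.23 (pool B) and −1.78 (pool C). The sizes at the higher doses depend on how reporters without RNA are treated, since the level of such a reporter is set by the pseudocount and its DNA count. Over reporters with RNA in both cultures, the differences were −1.34 ± 0.585 at 0.1 ng/ml and −0.962 ± 0.420 at 100 ng/ml, still negative in 4 of 4 pools, and a pseudocount of 0.1 gave −4.09 and −2.85 at those doses.

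**Figure D1:**
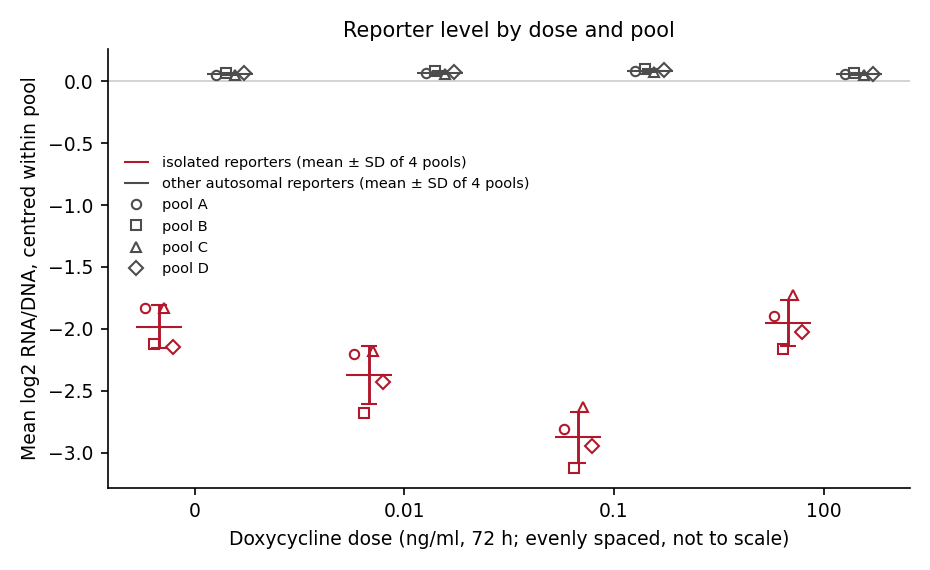
Mean log2 RNA/DNA, centred within each pool (vertical axis), of isolated and other autosomal reporters at each dox dose in ng/ml (horizontal axis). Open symbols are the 4 pools and bars show their mean ± SD; isolated reporters lie between −3.12 and −1.73 and the others between 0.05 and 0.10.

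On the log2 scale and in the main setting, the pools did not agree on whether the gap differed between dox 100 and dox 0. The change in the difference was −0.068 in pool A, −0.041 in pool B, 0.106 in pool C and 0.124 in pool D, a mean of 0.030 ± 0.0991 (exact sign-flip test, p = 0.625). It was negative in 2 pools and positive in 2. Over other settings it ranged from −0.737 with a pseudocount of 0.1, negative in all pools, to 0.782 for medians, positive in all pools. Measured against the spread of all autosomal reporters of the pool at the same dose, the gap was smaller at dox 100: −0.540 ± 0.0508 SD units at dox 100 and −0.999 ± 0.0961 at dox 0, with a change of 0.460 ± 0.0546 in the same direction in 4 of 4 pools (exact sign-flip test, p = 0.13). The spread itself was wider in the others at dox 100. Corrected for noise between cultures, the SD over isolated reporters was 1.94 ± 0.276, against 3.44 ± 0.0933 over the others at dox 100, and 1.85 ± 0.214 against 1.96 ± 0.036 at dox 0. At dox 100, 75.5% of isolated reporters and 47.2% of the others, on average over pools, had no RNA. Their levels are set by the pseudocount and the DNA count, so these SDs and the gap in SD units depend on that limit.

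The distributions overlap. At dox 0, 36 of the 293 isolated reporters (12.3%) were at or above the median of the other autosomal reporters of their pool, 15 were in the others' top quartile and 6 in their top decile. At the other end, 202 (68.9%) fell in the others' lowest quartile and 108 (36.9%) in their lowest decile. The corresponding counts at 0.1 ng/ml dox were 42 at or above the median, 12 in the top quartile and 88 in the lowest decile. At 100 ng/ml, where 75.5% of the isolated reporters and 47.2% of the others, on average over pools, had no RNA, they were 63 (21.5%), 20 and 32 (10.9%). Within a pool, reporters without RNA are ordered by their DNA counts alone. A place in the lowest decile at 0.1 or 100 ng/ml therefore does not mark lower expression among them, and its count is not comparable with that at dox 0.

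**Figure D2:**
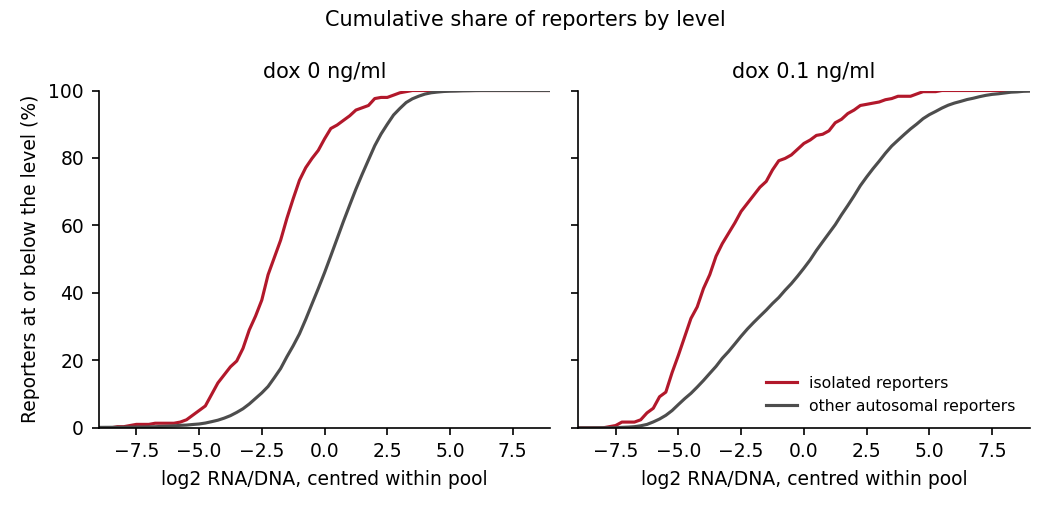
Cumulative share of reporters (vertical axis, %) at or below a given log2 RNA/DNA centred within pool (horizontal axis), for isolated and other autosomal reporters at dox 0 and at 0.1 ng/ml, all 4 pools together. The isolated curve lies to the left of the other at both doses, and 12.3% of isolated reporters at dox 0 reach the median of the others.

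The highest isolated reporters at dox 0, among those with at least 100 DNA reads in both libraries, reached the level of the others' top decile. The reporter at chr17:73187502 (pool B, minus strand) had 953 and 1010 RNA reads on 239 and 186 DNA reads, a level of 2.90 ± 0.327 (SD, n = 2 cultures), although its nearest neighbour is 637.6 kb away. The reporters at chr1:53360293 (pool A, 849 and 925 RNA reads), chr10:28520537 (pool C, 1218 and 1238) and chr3:16098853 (pool D, 1257 and 1304) had levels of 2.77, 2.67 and 2.54. These 4 belong to the 6 in the top decile. The other 2, at chr10:31329731 in pool A and chr4:121715379 in pool D, were named after their values were seen.

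At the other extreme stood reporters with ample DNA and almost no RNA. The reporter at chr12:98470034 (pool D, plus strand) had 0 RNA reads in all 8 RNA libraries on 256 to 594 DNA reads. The reporter at chr1:160765131 (pool C) likewise had 0 RNA reads in all 8. At chr6:80137078 (pool A) there were 7 and 3 RNA reads at dox 0 on 2449 and 1705 DNA reads, a level of −7.78 ± 0.459, and the 4 libraries at 0.1 and 100 ng/ml had none. The reporter at chr7:11698084 (pool C), with 9 reporters within 5 Mb, had 2 and 0 RNA reads on 397 and 473 DNA reads at dox 0. A count of 0 in a library allows up to 3 reads, and reads are PCR products, so this limit covers counting error only.

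The 5 most distant reporters were all below the mean of their pools at dox 0, with levels of −3.27 at chr8:5757372 (pool D, nearest neighbour 2064 kb away), −1.86 at chr7:67988327 (pool C, 2064 kb), −3.11 at chr4:29233957 (pool D, 2000 kb), −4.51 at chr3:3610650 (pool D, 1716 kb) and −0.14 at chr6:76657245 (pool C, 1682 kb). The first of them had 35 and 47 RNA reads at dox 0, 34 and 12 at 0.01 ng/ml, and 0 in all 4 libraries at 0.1 and 100 ng/ml, on 302 to 600 DNA reads throughout. At chr4:29233957, RNA was 0 and 0 at 0.1 ng/ml and 37 and 0 at 100 ng/ml, so a single culture decides its value there. The cutoff at 500 kb is not a natural boundary. The 3 reporters just inside it, at chr11:65359261, chr7:53280022 and chr18:55922972 (500.6, 500.6 and 501.1 kb), had levels of 0.80 ± 2.73, 0.96 ± 2.29 and −0.18 ± 3.37 at dox 0 (SD, n = 2 cultures), and each had 13 to 24 DNA reads in 1 library. The 3 just outside, at chr18:88758552, chr6:67743293 and chr7:26545758 (500, 499 and 495.6 kb), had levels of −2.07, −2.05 and 2.79.

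Level fell with distance to the nearest reporter long before the cutoff was reached. At dox 0 the mean level was 0.684 ± 0.136 for reporters with a neighbour within 10 kb (SD, n = 4 pools), 0.274 ± 0.0515 at 10 to 50 kb, −0.048 ± 0.0571 at 50 to 100 kb, −0.396 ± 0.0644 at 100 to 250 kb and −1.11 ± 0.0372 at 250 to 500 kb. Among the isolated reporters it was −1.77 ± 0.307 at 500 to 750 kb (205 reporters), −2.70 ± 0.320 at 750 to 1000 kb (56 reporters) and −1.99 ± 0.549 beyond 1 Mb (32 reporters). Every pool gave a lower mean at 500 to 750 kb than at 250 to 500 kb, but the 2 farthest classes do not keep the order. Within the isolated reporters, Spearman's rho of level with distance was only −0.0953 at dox 0 over 293 reporters, and that with the number of reporters within 5 Mb was 0.191. These are descriptions across reporters that share libraries.

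**Figure D3:**
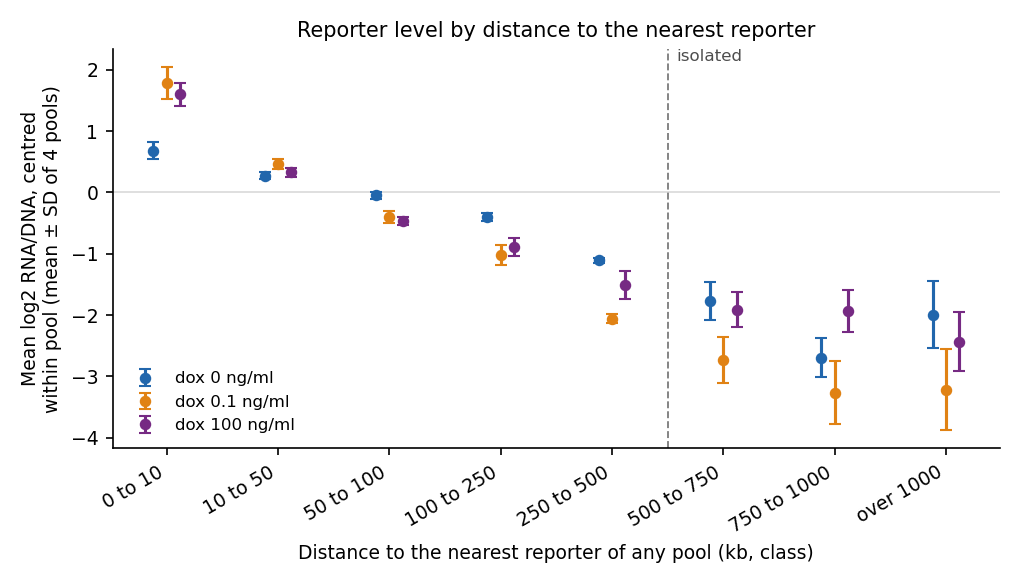
Mean log2 RNA/DNA centred within pool (vertical axis, mean ± SD of 4 pools) for reporters grouped by distance to the nearest reporter of any pool in kb (horizontal axis), at dox 0, 0.1 and 100 ng/ml. Classes right of the dashed line are the isolated reporters; at dox 0 the means run from 0.684 in the nearest class to −1.11 at 250 to 500 kb and −1.77 at 500 to 750 kb.

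Isolated reporters were low on every autosome. Their mean was below that of the other reporters of the same chromosome on 19 of 19 autosomes at dox 0, at 0.1 ng/ml and at 100 ng/ml. At dox 0 the gap was narrowest on chromosome 10, −0.707 with 15 isolated reporters, followed by chromosome 19, −1.23 with 7. It was widest on chromosome 18, −2.77 with 8, and chromosome 8, −2.56 with 18. Centring each reporter on its own chromosome within its pool left the difference at −2.01 ± 0.155 at dox 0.

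The gap narrowed but remained when the density of the wider neighbourhood was taken into account, a comparison added after the data had been seen. The other reporters were weighted to the isolated ones over 8 classes of the number of reporters within 5 Mb (0 to 19, 20 to 24, 25 to 29, 30 to 34, 35 to 39, 40 to 49, 50 to 59 and 60 to 73). The difference was then −1.55 ± 0.155 at dox 0, −1.85 ± 0.231 at 0.01 ng/ml, −2.31 ± 0.158 at 0.1 ng/ml and −1.61 ± 0.185 at 100 ng/ml, each negative in 4 of 4 pools (exact sign-flip test, p = 0.13). The isolated mean was below that of the others in all 8 classes at dox 0, by amounts that varied. With 0 to 19 reporters within 5 Mb, 41 isolated reporters averaged −2.93 and 222 others −1.14. With 25 to 29, where the gap was narrowest, 49 isolated reporters averaged −1.74 and 548 others −0.84.

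The nearest reporters on each side that are not themselves isolated were low as well. The isolated reporters averaged −1.99 at dox 0, and these flanking reporters −1.11. The isolated reporter was below this flanking mean in 198 of 293 cases (67.6%). Across the 293 the rank correlation of the pair was weak, 0.211.

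Many isolated reporters had another as their next neighbour. A neighbour of an isolated reporter already meets the rule on the side that faces it, and the number expected from this was not computed. Of the 293, 127 stand next to another isolated reporter along the chromosome, in 57 runs, 45 of 2, 11 of 3 and a single run of 4. That run lies on chromosome 16 at positions 60711847 (pool B), 62018379 (pool D), 62682850 (pool C) and 63416170 (pool D). Its members had levels of −1.54, −3.88, −1.18 and −1.78 at dox 0, all below the mean of their pools, and it was singled out after its values were seen. At dox 100 the first 3 had 0 RNA reads in both cultures and the last had 50 and 0. Within the 3 closest isolated pairs, levels differed. In the pair on chromosome 15, 515.6 kb apart, the reporter at 68250377 (pool D) had a level of −2.53 and no RNA at 0.1 or 100 ng/ml, whereas that at 68766001 (pool C) had 0.23 ± 1.97 and kept 31 and 58 RNA reads at 100 ng/ml. On chromosome 6, 516.4 kb apart and both in pool C, the reporters at 41075403 and 41591845 had levels of −1.07 and −5.74. On chromosome 1, the silent reporter at 160765131 (−6.82) lies 503.8 kb from one at 160261320 (pool D) that had a level of −4.19.

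Dox left most isolated reporters without any detectable RNA. The share with 0 RNA reads in both cultures was 0.605 ± 0.700% at dox 0, 1.84 ± 2.40% at 0.01 ng/ml, 46.5 ± 9.82% at 0.1 ng/ml and 75.5 ± 8.52% at 100 ng/ml (SD, n = 4 pools). For the other autosomal reporters it was 0.253 ± 0.111%, 0.530 ± 0.305%, 17.4 ± 1.67% and 47.2 ± 2.08% at the same doses. At 100 ng/ml the excess was 19.04 percentage points in pool A, 26.7 in pool B, 34.7 in pool C and 32.7 in pool D, 28.3 ± 7.03 on average and positive in 4 of 4 pools (exact sign-flip test, p = 0.13). At 0.1 ng/ml, 139 of 293 isolated reporters had no RNA and 74 had RNA in both cultures. At 100 ng/ml these were 224 and 26. On average over pools, 25.7% of isolated reporters and 64.6% of the others had RNA in both cultures at 0.1 ng/ml. The shares at 100 ng/ml were 9.13% and 31.7%. Taking both doses together, 41.3% of isolated reporters had no RNA at 0.1 or at 100 ng/ml, against 15.2% of the others. Of the 154 isolated reporters that still had RNA at 0.1 ng/ml, 103 (66.9%) had none at 100 ng/ml, against 39.1% of the 8490 others. Of the 139 without RNA at 0.1 ng/ml, 18 (12.9%) had some at 100 ng/ml, close to the 12.5% of the others.

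**Figure D4:**
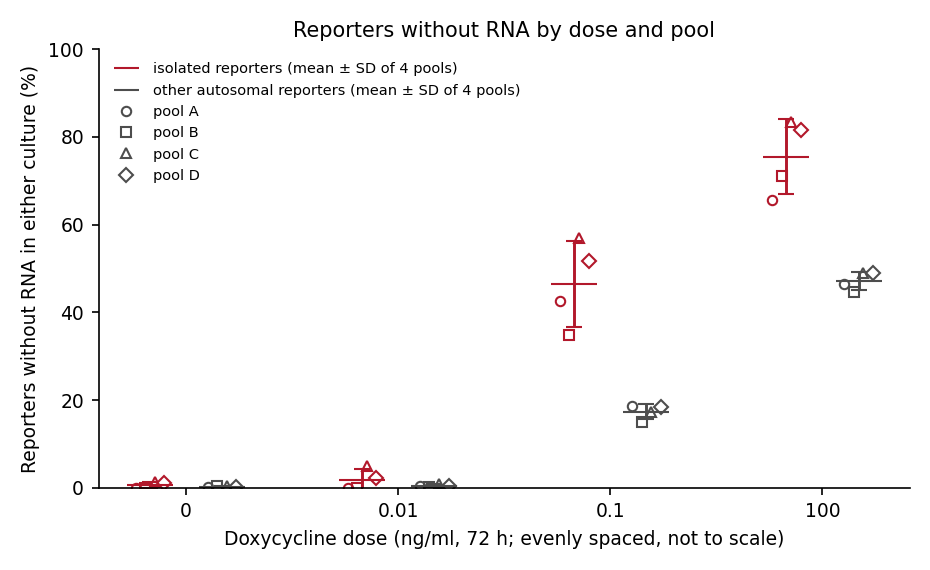
Share of reporters without RNA in either culture (vertical axis, %) at each dox dose in ng/ml (horizontal axis), isolated and other autosomal reporters. Open symbols are the 4 pools and bars their mean ± SD; at 0.1 ng/ml the isolated reporters average 46.5% and the others 17.4%.

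The shares were also compared at like starting level of RNA/DNA. The autosomal reporters of each pool were divided into quintiles of their level at dox 0, a comparison added after the data had been seen. Of the isolated reporters, 171 (58.4%) were in the lowest quintile and 13 (4.44%) in the highest. RNA reads stayed unequal within every quintile, with median dox 0 counts of 24, 103, 198.5, 263.5 and 594 in isolated reporters from the lowest to the highest, and 34, 126, 262.5, 540 and 1140 in the others, and their part in the shares was not tested. In the lowest quintile, 61.4% of isolated reporters had no RNA at 0.1 ng/ml, against 51.7% of the others, though they also started lower there (−3.26 against −2.96). In the second quintile the shares were 33.8% of 68 isolated reporters and 23.5% of the others. With the others weighted to the isolated reporters' quintiles, the excess at 0.1 ng/ml was 9.25 percentage points in pool A, −0.765 in pool B, 20.6 in pool C and 11.3 in pool D, 10.1 ± 8.77 on average (exact sign-flip test, p = 0.25), so it did not hold in pool B. At 100 ng/ml it was 11.7 ± 6.63 points and positive in 4 of 4 pools, from 5.54 in pool A to 20.0 in pool C (exact sign-flip test, p = 0.13). On the same weighting the mean level differed by −0.455 ± 0.0598 at 0.01 ng/ml, −0.709 ± 0.167 at 0.1 ng/ml and −0.591 ± 0.0949 at 100 ng/ml, each negative in 4 of 4 pools (exact sign-flip test, p = 0.13). These values include the difference left at dox 0 within quintiles, which was not subtracted. Beside the lowest quintile, it was −1.11 against −0.975 in the second, 0.117 against 0.145 in the third and 2.37 against 2.64 in the highest, with 1.18 for both groups in the fourth.

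**Figure D5:**
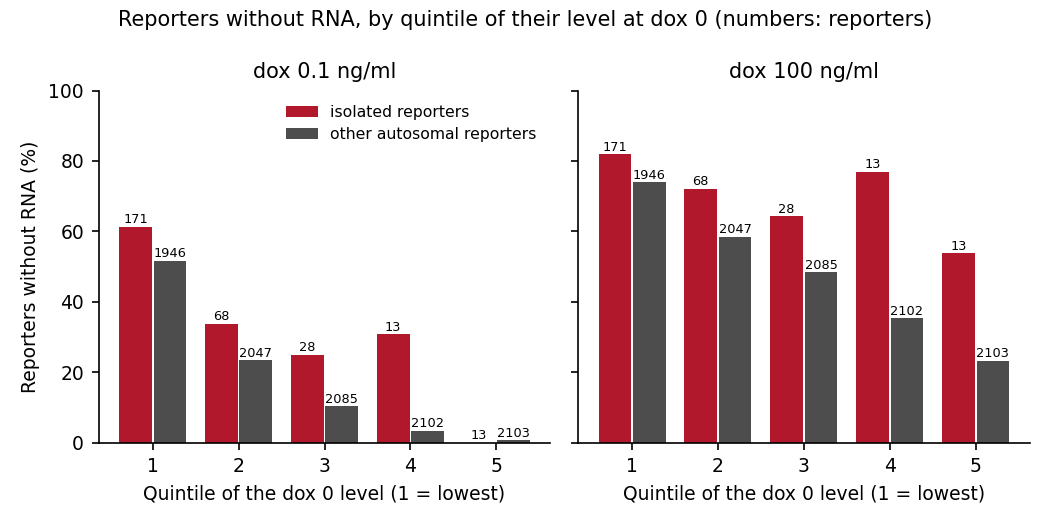
Share of reporters without RNA (vertical axis, %) at 0.1 and 100 ng/ml dox, by quintile of the level at dox 0 (horizontal axis, 1 lowest), isolated and other autosomal reporters, all pools together; numbers above bars count reporters. At 0.1 ng/ml the lowest quintile holds 61.4% and 51.7% without RNA, and the 2 highest quintiles hold 13 isolated reporters each.

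Reporter by reporter, dox responses were tested per pool with edgeR's quasi-likelihood test of the change in RNA over DNA, with Benjamini-Hochberg adjustment at 0.05 over all reporters of the pool. At 0.01 ng/ml against dox 0, edgeR called none of the 293 isolated reporters lower or higher. Over all 10785 reporters tested, it called 0% lower and 0.0185% higher. Its unadjusted p was under 0.05 in 13 of the 293, against 532 of the 10785. DESeq2 called 2 isolated reporters lower at this dose, and its share over all reporters is not given here. Against dox 0, 110 isolated reporters (37.5%) were called lower at 0.1 ng/ml, against 19.8% of all reporters tested, and 5 (1.71%) higher, against 9.07%. At 100 ng/ml, 169 (57.7%) were called lower, against 50.4%, and 9 (3.07%) higher, against 10.9%. Compared with the other autosomal reporters, the share called lower was greater by 18.1 ± 2.42 percentage points at 0.1 ng/ml and by 7.53 ± 2.47 at 100 ng/ml, in 4 of 4 pools at both doses, and the share called higher differed by −7.58 ± 2.80 and −7.96 ± 2.03 points, negative in 4 of 4 pools (exact sign-flip test, p = 0.13 for each). The excess called lower at 100 ng/ml did not hold in every setting. It turned without dox 100 culture 1 (56.3% of isolated reporters and 61.1% of all) and was absent without culture 2 (54.3% and 54.7%). In the lowest quintile of level at dox 0, described above, 49.7% of isolated reporters and 56.9% of the others were called lower at 100 ng/ml. In the quintiles above it the isolated share was the greater. It was 67.6% against 58.2%, 67.9% against 52.3%, 76.9% against 44.1% and 69.2% against 40.9%, with 13 isolated reporters in each of the last 2. At 0.1 ng/ml the shares called lower in the lowest quintile, which holds 58.4% of isolated reporters, were closer, 38% and 33.6%. From the second quintile to the highest they were 44.1% and 26%, 28.6% and 17.1%, 46.2% and 11.8%, and 7.69% and 9.22%. The shares called lower were not weighted to the quintiles. Isolated reporters called neither way had a median of 107 RNA reads summed over the 2 cultures at dox 0, and those called lower 99.5, in the contrast of 0.1 ng/ml; in that of 100 ng/ml these were 41 and 125. The median log2 change was also taken with RNA sums under 3 reads set to 3 and library totals as the scale. It was −2.58 in isolated reporters and −1.84 over all tested at 0.1 ng/ml, and −3.59 and −3.51 at 100 ng/ml. At that limit were 49.5% of isolated reporters and 19.3% of all at 0.1 ng/ml, and 78.5% and 49.7% at 100 ng/ml.

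Counts of calls moved with the libraries and the scaling. Without dox 0 culture 1, 66 isolated reporters (22.5%) were called lower at 0.1 ng/ml, against 11.7% of all, and without culture 2, 70 (23.9%), against 11.4%. In either case 2 (0.683%) were called higher at 0.1 ng/ml, against 5.41% of all. At 100 ng/ml 4 (1.37%) were called higher in either case, against 7.83% of all without culture 1 and 7.80% without culture 2. Scaling by library totals, which makes the median fitted change over all reporters −1.96 in place of −0.796 at 0.1 ng/ml and −5.15 in place of −4.12 at 100 ng/ml, left 1 isolated reporter (0.341%) called higher at 0.1 ng/ml, against 4.38% of all, and 4 (1.37%) at 100 ng/ml, against 5.75%. With the culture number as a block, 3 (1.02%) were called higher at 0.1 ng/ml, against 8.02% of all. A call as higher is therefore relative to whichever reporters fix the scale.

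Of the 169 isolated reporters called lower at 100 ng/ml, 164 (97.0%) had 0 RNA reads in both cultures, against 86.5% of the 5176 others called lower, and none of the 169 had RNA in both. Against a limit of 3 reads over both cultures, the share of RNA reads in these 164 was lower by at least 3.31-fold to at least 917-fold, with a bound of 10-fold or more in 145. Summed RNA reads at dox 0, which limit such bounds, had a median of 125 in the isolated reporters called lower and 364.5 in the others called lower. The largest bound is at chr19:18650744 (pool A, plus strand), whose nearest neighbour is 643.6 kb away. It had 1780 and 1871 RNA reads at dox 0, 1565 and 1435 at 0.01 ng/ml, 335 and 557 at 0.1 ng/ml, and 0 and 0 at 100 ng/ml, on 1601 to 2340 DNA reads. Its share of RNA reads at dox 100 was at least 917-fold lower than at dox 0, counted against a limit of 3 reads over both cultures (edgeR, adjusted p = 8.88e-07). The reporters at chr1:53360293 and chr10:5314087 (both pool A) also had 0 and 0 at dox 100, at least 446-fold and 404-fold lower than at dox 0 (edgeR, adjusted p = 2.87e-05 and 1.89e-05). The reporter at chr3:16098853 (pool D) had 32 and 0 RNA reads at dox 100, against 1257 and 1304 at dox 0, a log2 change of −4.23 ± 1.55 (SE; edgeR, adjusted p = 0.0331). That call was lost without dox 0 culture 1 (edgeR, adjusted p = 0.17) or culture 2 (0.131), and the range over 11 alternatives was 0.000366 to 0.17.

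Of the 110 isolated reporters called lower at 0.1 ng/ml, 96 (87.3%) had no RNA in either culture, against 68.8% of the 1983 others called lower. Another 5 of the 110 had RNA in both cultures. In this last group the reporter at chr19:49772085 (pool D) had 584 and 578 RNA reads at dox 0, 331 and 211 at 0.01 ng/ml, 57 and 52 at 0.1 ng/ml and 0 and 0 at 100 ng/ml. Its log2 change at 0.1 ng/ml was −2.76 ± 0.53 (SE; edgeR, adjusted p = 0.00334). At chr1:53360293 RNA was 63 and 95 reads at 0.1 ng/ml, against 849 and 925 at dox 0 (log2 change −3.08 ± 0.86 SE; edgeR, adjusted p = 0.0194), and at chr10:5314087 it was 29 and 106, against 673 and 935 (−2.16 ± 0.64 SE; edgeR, adjusted p = 0.0257). Leaving out either dox 0 culture ended both of these calls (edgeR, adjusted p = 0.06 to 0.157), and leaving out either 0.1 ng/ml culture ended that at chr1:53360293 (0.0538 and 0.0743). The DNA counts as an offset ended those at chr19:49772085 (edgeR, adjusted p = 0.0579) and chr10:5314087 (0.171). These values are the highest over 11 alternatives each, whose lowest were 7.15e-15 and 2.3e-05; for chr1:53360293 the range was 9.59e-06 to 0.157. The other 2, at chr16:18672009 in pool A and chr3:91926728 in pool C, were named after their values were seen.

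A small number of isolated reporters held or gained RNA relative to the rest. At 100 ng/ml, 26 isolated reporters had RNA in both cultures, 9.13% on average over pools, against 31.7% of the others. These 26 had a median of 142 reads per library. Of them, 17 (65.4%) had been below their pool's mean at dox 0, against 251 of all 293 isolated reporters (85.7%). The clearest gain was at chr3:63182789 (pool A, plus strand), 1043 kb from its nearest neighbour. RNA was 16 and 32 reads at dox 0, 29 and 25 at 0.01 ng/ml, 136 and 304 at 0.1 ng/ml, and 293 and 428 at 100 ng/ml, on 459 to 1227 DNA reads. Both cultures had more RNA reads, and a higher level, at both upper doses than either had at dox 0. Reads of a library are shared among its reporters, so both measures are relative to the other reporters. An absolute gain was not measured. The log2 change was 4.22 ± 0.71 at 0.1 ng/ml (SE; edgeR, adjusted p = 0.00108) and 5.82 ± 0.73 at 100 ng/ml (adjusted p = 5.57e-05), and both calls held in all 11 alternative settings tried for each.

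The reporter at chr5:109050709 (pool D, minus strand) had one of the highest levels of all isolated reporters at dox 100. Its RNA was 1671 and 1594 reads at dox 0, 1175 and 786 at 0.01 ng/ml, 580 and 411 at 0.1 ng/ml and 2388 and 3304 at 100 ng/ml. Its log2 change at 100 ng/ml was 2.56 ± 0.36 (SE; edgeR, adjusted p = 0.000111). The highest level at dox 100, 7.09 ± 1.03 (SD, n = 2 cultures), was at chr10:114013631 (pool C), with 386 and 365 RNA reads on 41 and 163 DNA reads. Its call as higher (log2 change 3.02 ± 1.04 SE; edgeR, adjusted p = 0.0248) was lost in 6 of 10 alternative settings, with an adjusted p of 0.00523 to 0.154. At chr6:91465565 (pool D) the level was 6.51, with 705 and 359 RNA reads at dox 100 and 1044 and 1114 at dox 0, and it was not called (edgeR, adjusted p = 0.0941).

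Among the other isolated reporters called higher at 100 ng/ml, chr3:106535737 (pool B) had 46 and 221 RNA reads at dox 100, against 46 and 53 at dox 0 (log2 change 3.69 ± 1.03 SE; edgeR, adjusted p = 0.0093). Its cultures at dox 100 disagree, and the call was lost without dox 100 culture 2 (edgeR, adjusted p = 0.194), without either dox 0 culture (0.0618 and 0.0707) and with library totals (0.0579), within a range of 0.00261 to 0.194 over 11 alternatives. At chr17:36551816 (pool C) RNA was 61 and 155 at dox 100, against 68 and 60 at dox 0 (3.53 ± 0.91 SE; edgeR, adjusted p = 0.00557). Its DNA reads were 78 and 121 at dox 100, against 205 and 216 at dox 0. Without dox 0 culture 2 the adjusted p by edgeR was 0.0575, the highest of 10 alternatives that began at 0.00272. All 9 reporters called higher at 100 ng/ml had RNA in both cultures.

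The 5 called higher at 0.1 ng/ml were those at chr3:63182789 and chr17:36551816 (edgeR, adjusted p = 0.0492), that at chr7:11698084, and those at chr13:62223129 (pool A) and chr9:41097016 (pool C), the last 2 named after their values were seen. The reporter at chr7:11698084 had 2 and 0 RNA reads at dox 0, 0 and 3 at 0.01 ng/ml, 18 and 3 at 0.1 ng/ml and 0 and 0 at 100 ng/ml. Its log2 change at 0.1 ng/ml was 4.29 ± 1.35 (SE; edgeR, adjusted p = 0.0364). That call rests on few reads and was lost in 7 of 11 alternatives. These were the culture number as a block (edgeR, adjusted p = 0.0654), either dox 0 culture left out (0.0677 and 0.264), 0.1 ng/ml culture 1 left out (0.241), DESeq2 size factors (0.0719), library totals (0.0727) and the DNA counts as an offset (0.17), within a range of 0.0163 to 0.264. The call at chr17:36551816 was lost in 8 of 10 alternative settings, with an adjusted p of 0.0406 to 0.266 (edgeR, or DESeq2 where it was the alternative). At chr13:62223129 RNA was 741 and 887 at 0.1 ng/ml, against 281 and 364 at dox 0 (2.16 ± 0.66 SE; edgeR, adjusted p = 0.027), and at chr9:41097016 it was 1379 and 898, against 1017 and 1096 (2.13 ± 0.52 SE; edgeR, adjusted p = 0.0104). The call at chr13:62223129 was lost in 8 of 11 alternatives, among them library totals (edgeR, adjusted p = 0.256), DESeq2 size factors (0.178), the block (0.054), dox 0 culture 1 left out (0.271) and either 0.1 ng/ml culture left out (0.073 and 0.0723), within a range of 0.0196 to 0.271. That at chr9:41097016 was lost in 4 of 11, with library totals (edgeR, adjusted p = 0.0795), with DESeq2 size factors (0.0836), without dox 0 culture 2 (0.117) and without 0.1 ng/ml culture 1 (0.052), within a range of 0.00254 to 0.117.

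The DNA side shows how far these results rest on the normalization. Mean log2 DNA abundance of isolated minus other reporters was 0.087 in pool A, −0.044 in pool B, −0.349 in pool C and −0.160 in pool D, −0.116 ± 0.185 on average (exact sign-flip test, p = 0.375). Pools C and D are the more thinly read: 50.6% and 44.8% of their isolated reporters had under 100 DNA reads in some library, against 40.4% and 37.3% of the others, while in pools A and B it was 18.0% and 13.6%, against 21.0% and 19.4%. RNA libraries held 729552 to 1840870 reads and DNA libraries 928128 to 1571280. Over all pools Pearson's r of log2 RNA/DNA between cultures was 0.809 at dox 0 and 0.590 at dox 100 over isolated reporters, and 0.898 and 0.732 over the others.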

How the data were processed

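The deposited table gives read counts per barcode, not normalized by the authors: per the file headers, cDNA and genomic DNA barcodes were counted in columns of their own, beside chromosome, position and strand. The submitters' processing notes name Bowtie2 2.0 and mm9 with no role. Barcode calling and filtering are not given in the sources used here; all 16 mapping libraries enter only through positions, and 0 columns of sample values were left unused. Rows with fewer than 10 reads in any DNA library of their pool (118 of 10903) were left out. Neighbours were counted over all rows of all pools. The isolated reporters, and the lists and tests, were chosen with earlier results of these data known.

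Levels are log2 shares with a pseudocount of 1. Differences were computed per pool and tested over 4 pools by an exact two-sided sign-flip test. Dose changes were fitted per pool with edgeR 4.0.16 in R 4.3.3 (quasi-likelihood test, 16 libraries, assay and dose with an interaction, TMM scaling per assay, Benjamini-Hochberg at 0.05). The SE is the absolute log2 change over the square root of F, and is not reliable near 0 reads. DESeq2 1.42.0 was an alternative, and ranges of adjusted p over alternatives include it. The level differences and the edgeR fits were run after tests on simulated data, and DESeq2 was not tested in that way. Python 3.11.15, numpy 2.4.6, pandas 2.3.3 and scipy 1.17.1 were used. Per the labels, each culture was grown apart and then spread over the 4 doses, so culture numbers pair libraries across doses; culture differences of RNA/DNA nevertheless correlated between doses at only −0.0465 to 0.0463 (24 values). Cultures of 1 pool differed beyond counting noise (chi-square per degree of freedom of at least 4.5 in 32 pairs). Reads carry no molecular identifiers, so limits cover counting error only.

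Reporters were named by rule: the 5 farthest; the 4 highest and 4 lowest at dox 0 with at least 100 DNA reads in both libraries; the 3 highest at dox 100 with RNA in both cultures; per dose contrast, 3 or 4 called each way, by size for increases and by dox 0 reads for decreases; 3 on each side of 500 kb; and the 3 closest isolated pairs. Gene features were not analysed here. Alternatives are in the closing section.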

Additional observations from a re-analysis of the deposited data

How the results depend on the processing

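The level differences between isolated and other reporters stayed negative under all 18 alternatives run at each dose, in every pool each kept (4 of 4, or 3 of 3 where a pool was left out): −2.22 to −1.50 at dox 0, −2.66 to −1.91 at 0.01 ng/ml, −4.09 to −1.28 at 0.1 ng/ml and −2.85 to −0.950 at 100 ng/ml. The alternatives that combine RNA in both cultures with another pseudocount were chosen after seeing the data. The excess without RNA at dox 100 stayed between 23.1 and 31.7 points over 12 alternatives. The change of the difference between dox 100 and dox 0, 0.030 in the report, turned to −0.320 at an isolation distance of 250 kb, −0.443 at 1 Mb, −0.158 with a DNA minimum of 100, −0.0231 against the same chromosome and −0.737 with a pseudocount of 0.1; leaving out 1 culture gave −0.214 to 0.274 and leaving out 1 pool −0.00118 to 0.0630. With a pseudocount of 5 it was 0.461, for medians 0.782 and over reporters with RNA in both cultures 0.647, each positive in 4 of 4 pools. The cause of these shifts was not tested. Log2 DNA abundance turned to 0.0808 at 1 Mb.

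Counts of isolated reporters called lower and higher also moved, partly by construction where the distance changes the number of members. At 0.01 ng/ml, DESeq2 called 2 lower, and its share over all reporters is not given here. At 0.1 ng/ml, the DNA offset gave 53 lower (18.1%, against 10.3% of all) and 2 higher (0.683% against 6.25%), and DESeq2 size factors and library totals 1 higher each (0.341%, against 5.02% and 4.38%); leaving out 1 culture gave 66 to 100 lower and 2 to 7 higher. The replicate block gave 3 higher in place of 5 (1.02% against 8.02% of all) and ended the calls at chr7:11698084 and chr13:62223129. It moved no other count by over 1.5 times. At 0.1 ng/ml it gave 100 lower (34.1% against 17.2%). At 100 ng/ml it gave 162 lower (55.3% against 48.7%) and 9 higher (3.07% against 10.2%). At 100 ng/ml, DESeq2 size factors gave 5 higher (1.71% against 7.19%), library totals 4 (1.37% against 5.75%) and the DESeq2 Wald test 5 (1.71% against 8.20%). With 1 culture left out, the median fitted log2 change there was −7.05 to −6.29 in isolated reporters and −7.36 to −4.04 over all. With 250 kb and 1061 members, 373 were lower (35.2%, against 19.8% of all) and 28 higher (2.64% against 9.07%) at 0.1 ng/ml. At 100 ng/ml 648 were lower (61.1% against 50.4%) and 42 higher (3.96% against 10.9%). With 1 Mb and 32 members, 15 were lower (46.9% against 19.8%) and 1 higher (3.12% against 9.07%) at 0.1 ng/ml. At 100 ng/ml 21 were lower (65.6% against 50.4%) and 1 higher (3.12% against 10.9%). In checks of named reporters under the alternatives, a call held 115 times and was lost 36 times, never with a change of sign.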
